A study of Drosophila melanogaster with 2 samples.

Results

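The aminoacyl-tRNA synthetase genes of Drosophila melanogaster were taken as the protein-coding genes whose symbol is an amino acid code followed by RS, with -m for a mitochondrial enzyme, in Ensembl release 115. The rule gave 35 of 13945 protein-coding genes, 20 cytoplasmic and 15 mitochondrial. Aminoacyl-tRNA synthetases join each amino acid to its tRNA and so supply the ribosome with charged tRNAs. The cytoplasmic enzymes serve translation of nuclear messages, and the mitochondrial enzymes are made from nuclear genes, imported and used to translate the few messages of the mitochondrial genome. The split used here rests on the symbol alone. Whether a gene without -m also supplies the mitochondria was not examined. GluProRS is a fused enzyme that charges tRNAs with glutamate and with proline, and alpha-PheRS and beta-PheRS are the subunits of a single phenylalanine enzyme.

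The binding data were peak lists of chromatin immunoprecipitation and sequencing (ChIP-seq) with an antibody against green fluorescent protein (GFP). The samples form 1 group: 2 biological replicates of whole pupae aged 24 hours from a single transgenic line in which GFP is fused to the C-terminal end of CG17806, a zinc-finger protein, and the sex of the pupae was not collected. No untagged animals or other condition are among the lists, so the synthetase genes could be set only beside other genes of the same lists, and whole animals mix all cell types. Each replicate list and the list called on both replicates (the pooled list) held 30000 peaks, and the shorter list, cut at an irreproducible discovery rate (IDR), held 7645, all on dm6. Read depth is unknown because the lists hold no read counts. The authors give each peak a signal without naming its scale, and it serves here only for ranks within a list, with rank 1 the strongest. The deposited q-value exceeded 0.05 for 37.3% of pooled peaks, 20.1% of replicate 1 peaks and 57.4% of replicate 2 peaks, so ranks far down these lists have little support. At the tagged gene itself the nearest summit was 50 bp from a start site in the IDR, pooled and replicate 1 lists, and 4861 bp away in the replicate 2 list. A peak in the IDR list thus need not have a nearby summit in both replicate lists. At every synthetase gene with an IDR summit, its rank and position were the same in the pooled list.

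The cytoplasmic synthetase genes had an IDR summit more often than the mitochondrial ones in these lists. A gene was counted when a summit lay within 500 bp of an annotated start site of any of its transcripts. An IDR summit was present at 12 of the 35 synthetase genes (34.3%, Wilson 95% interval 20.8 to 50.8), while 19.5% of all protein-coding genes had one. The cytoplasmic genes contributed 10 of 20 (50%, interval 29.9 to 70.1) and the mitochondrial genes 2 of 15 (13.3%, interval 3.74 to 37.9). The cytoplasmic share was thus above the share over all genes and the mitochondrial share below it, and the mitochondrial interval includes the share over all genes. These intervals cover counting error only, and neither difference was tested. For the genes of the ribosome, which were chosen as a like group, the counts were 43 of 86 for cytoplasmic and 26 of 73 for mitochondrial ribosomal proteins.

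The order was the same in the longer lists. The IDR summits of the 12 genes are in the pooled list too, and the replicates went into both, so this order is not separate evidence. In the pooled list 15 of 20 cytoplasmic and 5 of 15 mitochondrial synthetase genes had a summit (75% and 33.3%), against 45.3% of all protein-coding genes. Those with a pooled but no IDR summit were 5 of 20 and 3 of 15 (25% and 20%), against 25.9%. In the replicate 1 list the counts were 15 and 7 (75% and 46.7%), against 47.2%, and in the replicate 2 list 14 and 5 (70% and 33.3%), against 42.1%. Summits in both replicate lists were found at 11 cytoplasmic and 3 mitochondrial genes (55% and 20%), against 33.1% of all protein-coding genes. Such summits need not mark the same site. At GlyRS the replicate 1 summits lay 454 bp upstream and 31 bp downstream, and the replicate 2 summit 212 bp upstream. Among genes in a single replicate list and not the pooled list the order was reversed. These were 3 of 20 cytoplasmic and 4 of 15 mitochondrial genes (15% and 26.7%), against 10.9%.

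**Figure D1:**
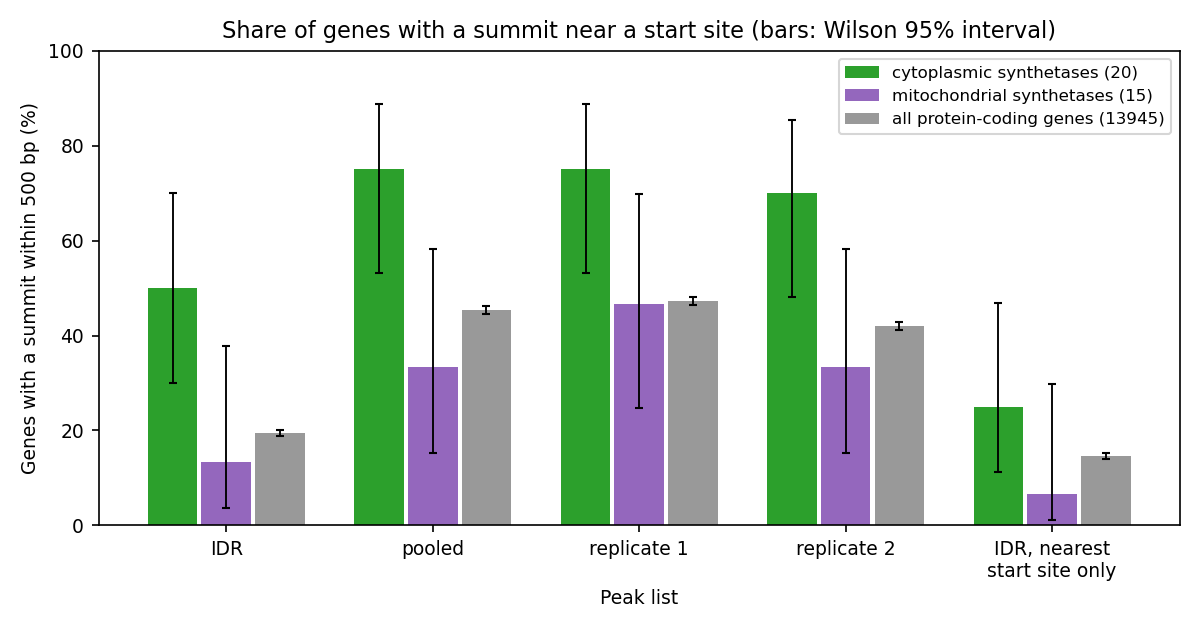
Share of genes (%, vertical axis) with a summit within 500 bp of a start site in each peak list, for cytoplasmic synthetase genes (green), mitochondrial synthetase genes (purple) and all protein-coding genes (grey), with Wilson 95% intervals as error bars. The cytoplasmic share is 50% in the IDR list, against 13.3% for mitochondrial and 19.5% for all genes, and falls to 25% where each summit counts only for its nearest start site.

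The 35 genes cover 20 amino acids, of which 15 have a cytoplasmic and a mitochondrial gene. Among these 15, an IDR summit was present at the cytoplasmic gene alone for 10 and at the mitochondrial gene alone for 2, arginine and cysteine. For leucine, tryptophan and tyrosine neither kind had one, and for 0 of the 15 did both. With 2 mitochondrial genes in the IDR list such an absence says little, and it did not hold in the longer lists. Both kinds had a summit for 3 of the 15 amino acids in the pooled list (arginine, cysteine and serine), for 4 in the replicate 1 list and for 3 in the replicate 2 list. GluProRS counts here for both of its amino acids. Of the 5 amino acids with a cytoplasmic symbol alone (Gln, Gly, His, Lys and Thr), the threonine gene was the only one with an IDR summit.

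The strongest summits were at 4 cytoplasmic genes, IleRS, SerRS, GluProRS and ThrRS. IleRS, which charges isoleucine, had IDR rank 697, with rank 823 in replicate 1 and 554 in replicate 2. Its peak, chr3L:22288303-22288629, was highest 198 bp upstream of the start site. SerRS, the serine enzyme, had IDR rank 764, with rank 1244 in replicate 1 and 325 in replicate 2. Its peak at chr2L:3037219-3037556 had the only summit downstream of the start site among the 12, at 16 bp, in a non-coding part of an exon of SerRS. GluProRS had IDR rank 1138, with rank 1712 in replicate 1 and 631 in replicate 2, and its summit lay 177 bp upstream at chr3R:23958386-23958686. ThrRS, the threonine enzyme, had IDR rank 1453, with rank 2160 in replicate 1 and 716 in replicate 2, and its summit lay 194 bp upstream at chr2L:12103371-12103725. These 4 genes are the only synthetase genes in the 1911 strongest IDR peaks, or 11.4% of the 35, where 6% of all protein-coding genes had a summit. In all 4 the rank was higher in replicate 2 than in replicate 1.

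To show what the summits look like, the IDR summit base and 50 bp to each side are given for 3 of the strongest genes and 3 weaker ones, from the Release 6 reference sequence (RefSeq), 5′ to 3′ on the strand of the synthetase gene. Capitals mark the longest unbroken run of A and T, or the first of them where runs are equal in length. Windows that lie in an exon are not shown.
IleRS, chr3L:22288417-22288517, plus strand: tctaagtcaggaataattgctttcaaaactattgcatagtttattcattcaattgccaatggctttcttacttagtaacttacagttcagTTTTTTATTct
GluProRS, chr3R:23958518-23958618, minus strand: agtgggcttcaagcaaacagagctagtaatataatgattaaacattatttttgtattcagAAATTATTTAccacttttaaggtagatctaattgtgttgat
ThrRS, chr2L:12103507-12103607, plus strand: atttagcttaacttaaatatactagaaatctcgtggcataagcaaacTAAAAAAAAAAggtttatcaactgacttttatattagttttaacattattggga
AsnRS, chr2L:19132018-19132118, minus strand: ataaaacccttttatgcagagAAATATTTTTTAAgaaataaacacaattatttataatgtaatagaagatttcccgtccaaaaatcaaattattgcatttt
alpha-PheRS, chrX:8145684-8145784, minus strand: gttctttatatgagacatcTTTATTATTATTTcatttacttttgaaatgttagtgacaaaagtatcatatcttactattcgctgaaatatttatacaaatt
ArgRS-m, chr3R:7886941-7887041, plus strand: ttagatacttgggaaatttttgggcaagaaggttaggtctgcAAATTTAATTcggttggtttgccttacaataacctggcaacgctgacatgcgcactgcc

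A and T made up 71.3% of the bases at IleRS, 72.3% at GluProRS, 75.2% at ThrRS and 78.2% at both AsnRS and alpha-PheRS. ArgRS-m, at 56.4%, had the lowest share of the 12. The longest run of A and T in the windows above was 13 bp, at AsnRS and at alpha-PheRS. In both the run in capitals ended within 20 bp before the summit. AsnRS also held another run of 13 bp, not in capitals, that lay across the summit. At ThrRS the run of 11 bp lay across the summit.

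The other 6 cytoplasmic genes had summits of middle or low rank in the IDR list. AspRS, the aspartate enzyme, had IDR rank 4888, with rank 6922 in replicate 1 and 3008 in replicate 2. Its peak, chr2R:12879853-12880228, was 243 bp upstream of an internal start site, inside introns of AspRS and of the overlapping gene Nmda1. MetRS, the methionine enzyme, had IDR rank 4922, with ranks 4981 and 5587 in replicates 1 and 2, and its summit was 166 bp upstream at chr2R:18850577-18850952. AsnRS, the asparagine enzyme, had IDR rank 5107, with ranks 5256 and 4905, at chr2L:19131977-19132091. These 3 genes have nearly the same IDR rank, well below the 4 strongest genes.

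ValRS, the valine enzyme, was the least secure of the 12. Its IDR summit, rank 5155 at chr2R:13198350-13198498, was 424 bp upstream of the ValRS start site, the largest distance among the 12. Replicate 1 had a summit there of rank 7608, and the nearest replicate 2 summit was 1222 bp from the IDR summit. AlaRS, the alanine enzyme, had IDR rank 5494, with rank 5244 in replicate 1 and 8041 in replicate 2, at chr2L:8381668-8382043, and its summit lay in an untranslated part of an exon of CG13392. In alpha-PheRS the IDR rank was 7479, with ranks 7595 and 8011, at chrX:8145546-8145921, near the end of the IDR list. The other subunit gene, beta-PheRS, had none in the IDR list, where the nearest summit was 7323 bp from its start site.

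Of the mitochondrial genes, CysRS-m had the stronger peak. This cysteine enzyme gene had IDR rank 4744, with rank 4245 in replicate 1 and 7068 in replicate 2, and its summit lay 104 bp upstream at chr2R:14161178-14161553. ArgRS-m, for arginine, had IDR rank 7498, with rank 8276 in replicate 1 and 7701 in replicate 2, and its summit lay 54 bp upstream at chr3R:7886895-7887050. The median IDR rank over the 12 genes was 4905, against 3459 over all 2713 protein-coding genes with an IDR summit.

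**Figure D2:**
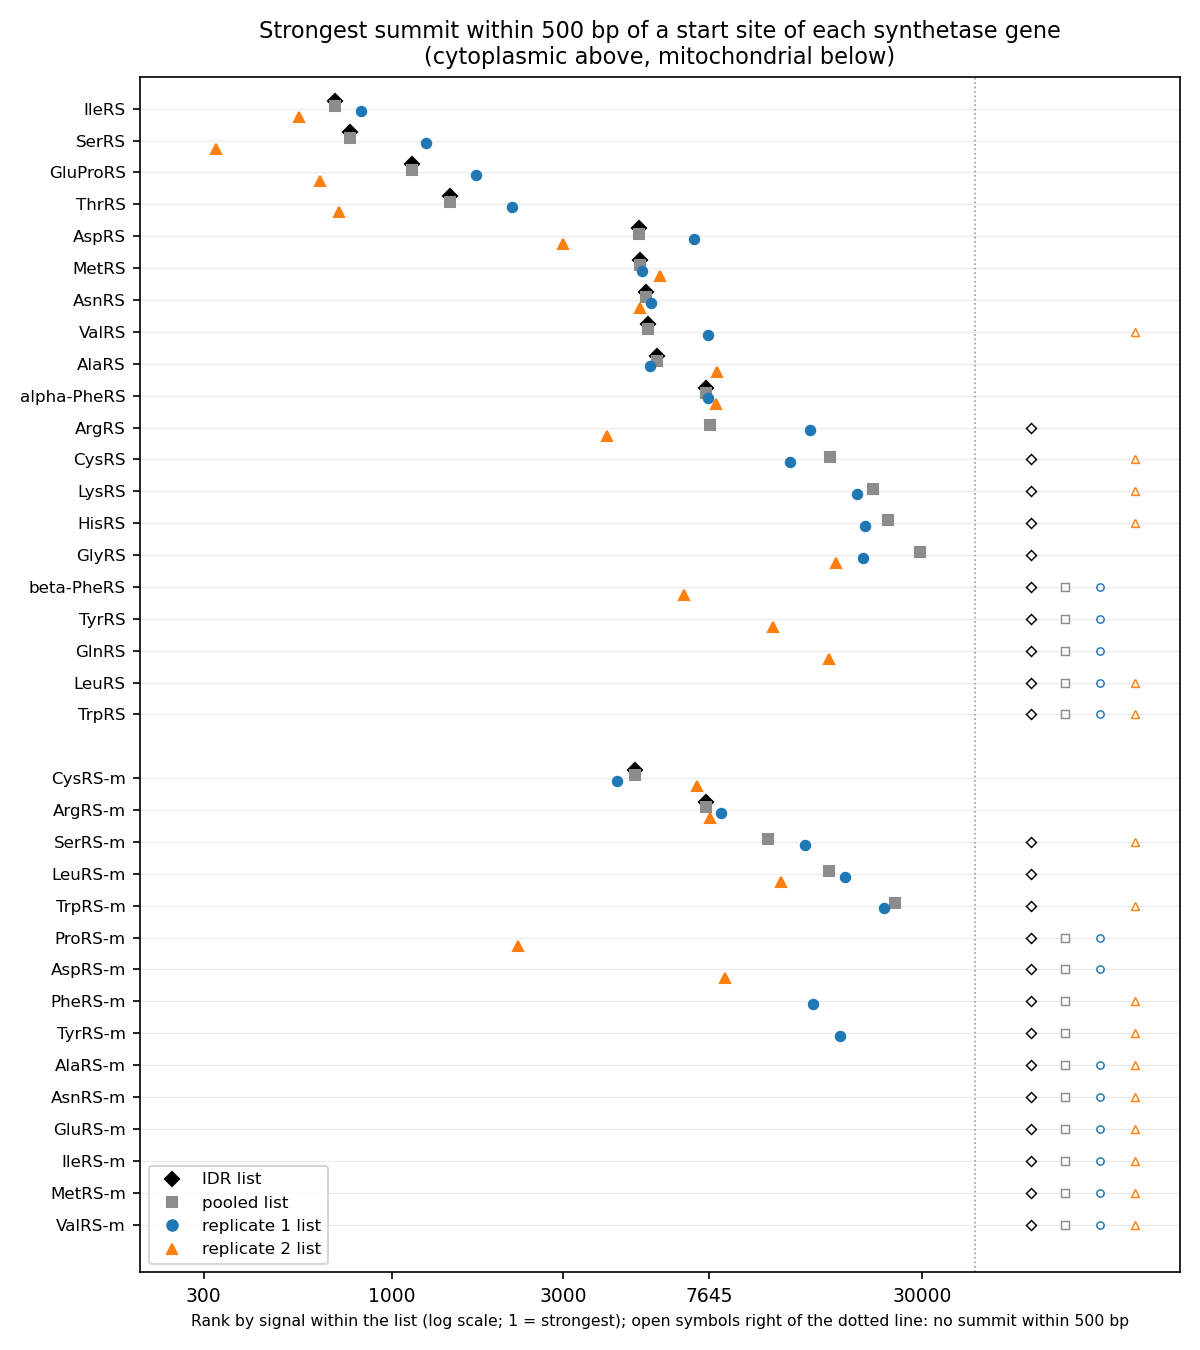
Rank by signal (log scale, horizontal axis) of the strongest summit near a start site (500 bp or less), for each of the 35 synthetase genes, in the IDR list (black), pooled list (grey), replicate 1 list (blue) and replicate 2 list (orange), with open symbols at the right where the list has no such summit. The 4 genes at the top have ranks from 325 to 2160 in every list, and ProRS-m has rank 2241 in replicate 2 alone.

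The replicate summits of the 12 genes were compared in position with the IDR summit. Replicate 1 had a summit within 100 bp of the IDR summit at all 12 genes, with a median offset of 10.5 bp and a largest offset of 61 bp, at alpha-PheRS. Replicate 2 had one at 11 of 12, all but ValRS, with a median offset of 18 bp. The replicate 2 offset was 83 bp at AlaRS and 39 bp or less at the other 10. Over all protein-coding genes with an IDR summit the shares were 96.6% in replicate 1 and 93.7% in replicate 2, and the median offsets 4 bp and 18 bp. Both replicates went into the IDR list, so these shares are not separate evidence. Of the 11 genes with a summit in both replicate lists, 7 ranked higher in replicate 2 and 4 in replicate 1, and among all such protein-coding genes 56.5% ranked higher in replicate 2. In the 7645 strongest peaks of replicate 2 alone 11 synthetase genes had a summit, against 20.5% of all protein-coding genes, and in those of replicate 1 alone 11, against 19.3%.

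Summits lay upstream of the start site at 11 of the 12 genes, at a median of 149 bp. Over all protein-coding genes with an IDR summit the median was 150 bp upstream and 84.9% were upstream. The median over the same 12 genes was 115.5 bp upstream for the replicate 1 summits, and over the 11 genes it was 138 bp upstream for the replicate 2 summits. Cytoplasmic ribosomal protein genes, by comparison, had a median of 36 bp upstream in the IDR list.

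**Figure D3:**
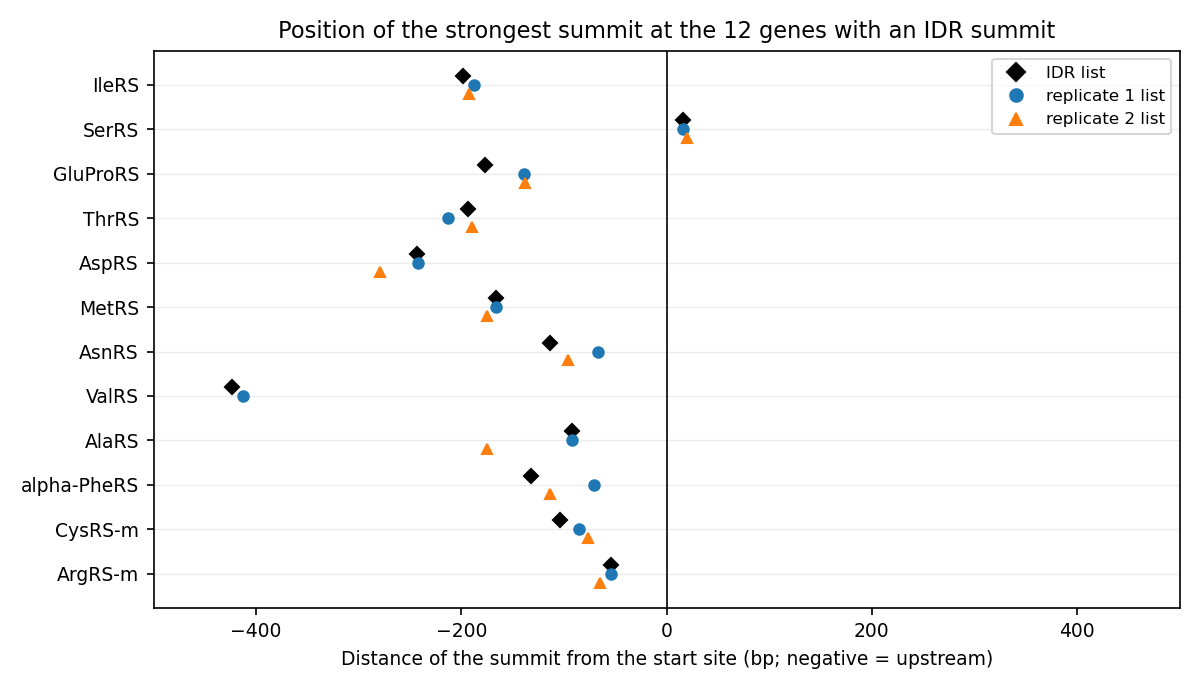
Distance (bp, horizontal axis, negative is upstream) from the start site to the strongest summit of the IDR list (black), replicate 1 list (blue) and replicate 2 list (orange) at the 12 synthetase genes with an IDR summit. All but SerRS lie upstream, and ValRS has no replicate 2 symbol.

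Most of these summits lay between the synthetase gene and a neighbour that is transcribed the other way. At 11 of the 12 genes a second gene on the opposite strand had a start site within 500 bp of the summit, and at 9 of them the summit was upstream of both. AlaRS was the exception. With neighbours on either strand counted, another gene's start site lay within 500 bp of the summit for 11 of the 12 synthetase genes (91.7%). On that count it was 1509 of the 2713 protein-coding genes with an IDR summit (55.6%) and 24 of 26 such mitochondrial ribosomal protein genes (92.3%). IleRS faces Hem, a component of the WAVE complex that drives actin assembly, with 470 bp between the start sites. ThrRS faces Patsas across 466 bp, and AsnRS faces DCTN6-p27, a dynactin subunit gene, across 369 bp. ArgRS-m faces CG17816 across 312 bp. The SerRS summit was 16 bp from the SerRS start site and 24 bp upstream of a start site of CG17260, and lay inside both genes. At these genes the summit was nearer to the synthetase gene.

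At 6 genes the neighbour's start site was the nearer one. The GluProRS summit was 83 bp upstream of AP-1sigma, which encodes the small subunit of a clathrin adaptor, and 177 bp upstream of GluProRS. The MetRS summit was 79 bp upstream of CG15084, and that of CysRS-m was 64 bp upstream of O-fut1, the enzyme that adds fucose to Notch. The ValRS summit was 89 bp upstream of Kdm4B, a histone demethylase gene, and that of alpha-PheRS 105 bp upstream of CG2129. At AspRS the nearer start site was that of Nmda1, 189 bp away, with the summit downstream of it. With each summit counted only for its nearest start site, 6 synthetase genes remained (17.1%), 5 cytoplasmic and 1 mitochondrial, against 14.6% of all protein-coding genes. These were AlaRS, AsnRS, IleRS, SerRS, ThrRS and ArgRS-m. A peak list cannot tell which of the paired genes a summit belongs to.

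A start site on the other strand, directed away, lay within 500 bp upstream of a start site of 22 of the 35 genes (62.9%), against 29.6% of all protein-coding genes. For mitochondrial ribosomal protein genes it was 53 of 73 (72.6%) and for cytoplasmic ones 36 of 86 (41.9%), so the layout is not particular to synthetase genes. The share was 15 of 20 for cytoplasmic and 7 of 15 for mitochondrial genes. Within this class, 10 of 22 synthetase genes had an IDR summit (45.5%, interval 26.9 to 65.3), against 33.9% of all such protein-coding genes. Without such a neighbour, 2 of 13 had one (15.4%, interval 4.33 to 42.2), against 13.4%. Both intervals include the share over all genes of the same class. Within the class with a neighbour, 8 of 15 cytoplasmic and 2 of 7 mitochondrial genes had an IDR summit, and without one 2 of 5 cytoplasmic and 0 of 8 mitochondrial genes did. The part of this promoter layout in the count over all 35 genes was not tested.

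Base composition was measured at the summits. In windows of 50 bp to each side of the 12 summits their mean share was 73.1% (SD 6.52 across summits), against 67.9% (SD 9.52) over the 2236 IDR summits at protein-coding start sites. A pair of 51 bp windows centred 250 bp to each side held 55.1% (SD 9.11) and 56.6% (SD 8.49). The centre was richer than these flanks at 11 of the 12, with ArgRS-m the exception, and at 80.5% of all promoter summits. The largest difference was at alpha-PheRS, where the centre held 78.2% and the flanks 39.2%. For all synthetase genes with a summit in a replicate list, a single summit per gene was measured. The share of A and T was 64.2% (SD 13.5, n = 22) in replicate 1, below the mean of all IDR promoter summits. In replicate 2 it was 70.9% (SD 9.67, n = 19). These include summits at genes outside the IDR list. At the genes with an IDR summit the mean share was 72.5% for replicate 1 summits and 73.7% for replicate 2 summits. The centre was richer than the flanks at 15 of the 22 replicate 1 summits and at 18 of the 19 replicate 2 summits.

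**Figure D4:**
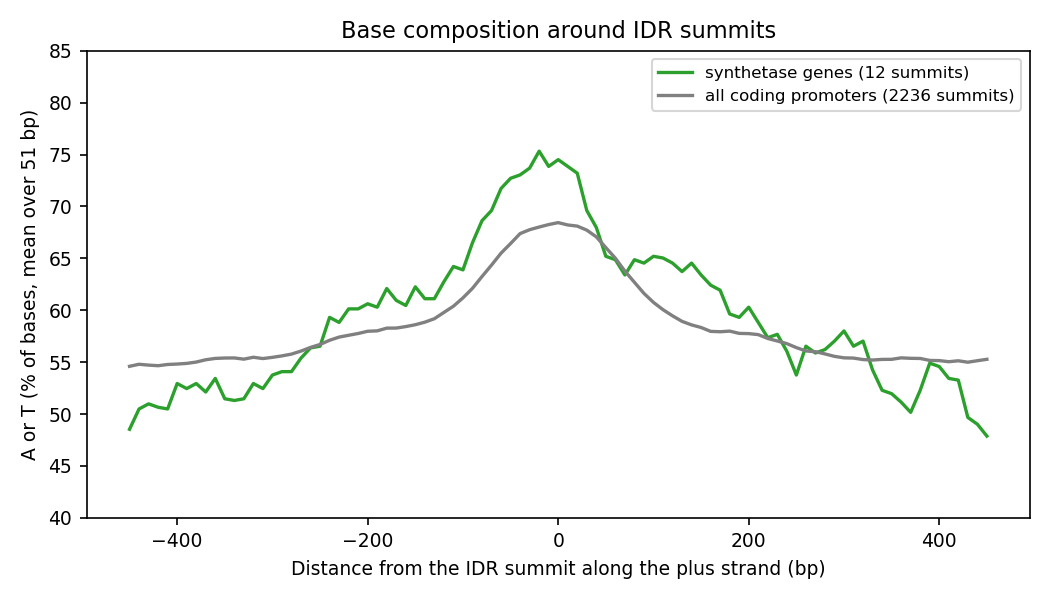
Share of A and T (% of bases, mean over 51 bp, vertical axis) by distance from the IDR summit along the plus strand (bp, horizontal axis) for the 12 synthetase summits (green) and all 2236 summits at protein-coding start sites (grey). The green line reaches 74.5% at the summit, against 68.4% for the grey line.

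The word TATAAA, searched on both strands within 50 bp of the summit, was found at 7 of the 12 genes (58.3%), against 24.8% of the 2236 promoter summits. The 7 are AlaRS, AsnRS, SerRS, ThrRS, ValRS, alpha-PheRS and CysRS-m. The word is made of A and T alone and is found more often in richer sequence, and the 7 windows held 73.3% to 79.2% A and T, so its part apart from base composition was not tested. In 300 bp promoters (250 bp before to 50 bp after a start site) it was present at 13 of 20 cytoplasmic and 7 of 15 mitochondrial genes, against 51.2% of all protein-coding genes. A run of 8 A bases was found at ThrRS alone among the 12 summits (8.33%), against 10.2% of the 2236 promoter summits.

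Other words known from fly promoters were searched in the same way. At the 12 summits they are too rare in all promoter windows for a count of 0 to show a difference. The E-box word CAGCTG, which reads the same on both strands, was found in the 300 bp promoter of 10 of 20 cytoplasmic and 8 of 15 mitochondrial genes, against 22.3% of all protein-coding genes. At the 12 summits it was found within 50 bp in 0 windows, and in 2.64% of the 2236 promoter windows. The DNA replication-related element, TATCGATA, was in the promoter of 5 cytoplasmic genes (AlaRS, ArgRS, AspRS, IleRS and TrpRS) and of PheRS-m, against 10.2% of all genes, and at 0 of the 12 summits, against 1.52%. GAGAG, the word of the GAGA factor, was in 5 of 20 and 2 of 15 promoters, against 36.3% of all genes, and at 0 of the 12 summits, against 8.94%. All words were searched on both strands and none of these matches shows that a factor is bound.

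Another 8 synthetase genes (22.9%) had a pooled summit within 500 bp but no IDR summit, against 25.9% of all protein-coding genes. ArgRS came closest: its pooled rank of 7715 is just outside the 7645 IDR peaks, and its rank was 14603 in replicate 1 and 3975 in replicate 2. Its summits lay 205, 171 and 168 bp upstream of the start site in the pooled, replicate 1 and replicate 2 lists. SerRS-m had pooled rank 11124 and replicate 1 rank 14141, both 376 bp upstream, and its nearest replicate 2 summit was 2057 bp away. LeuRS-m and CysRS had pooled ranks of 16517 and 16579 with summits 7 and 27 bp upstream of the start site. The deposited −log10 q-value was 4.23 at ArgRS, 3.65 at SerRS-m, 1.83 at LeuRS-m and 1.81 at CysRS. LysRS, HisRS, TrpRS-m and GlyRS had pooled ranks from 21916 to 29461 and a −log10 q from 0.42 to 0.88, which is a q-value above 0.05. For LeuRS-m, an IDR summit lay 923 bp from the start site, the nearest of any gene outside the 500 bp limit, and ValRS, at 424 bp, was the farthest inside it. Within 1000 bp LeuRS-m joined the count, which was then 13 of 35, against 23.3% of all protein-coding genes, and within 250 bp ValRS left it, with 14.7% of all genes counted.

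A further 7 genes (20%) had a summit in the list of a single replicate and none in the pooled list, against 10.9% of all protein-coding genes. ProRS-m, the mitochondrial proline enzyme, stands out: its replicate 2 summit had rank 2241, 124 bp upstream of the start site at chr3L:2651804-2652143, and the nearest summit of the replicate 1, pooled and IDR lists was 15277 bp away. Of the 2241 strongest replicate 2 peaks, 27 (1.20%) had no replicate 1 summit within 500 bp and 15 (0.669%) no pooled summit. For beta-PheRS, replicate 2 had a summit of rank 6499 at chr3R:24252598-24252937, 89 bp upstream, and the nearest replicate 1 summit was 7329 bp away. AspRS-m, TyrRS and GlnRS had replicate 2 summits of rank 8486, 11530 and 16437 alone, and PheRS-m and TyrRS-m had replicate 1 summits of rank 14885 and 17737 alone. The −log10 q was 3.12 at AspRS-m, 1.63 at TyrRS, 3.77 at PheRS-m and 2.70 at TyrRS-m. At GlnRS it was 0.73, which is a q-value above 0.05. The sequences around the strongest of the replicate 2 summits are shown because they differ from each other in composition, on the strand of the gene, with the longest run of A and T in capitals.
ProRS-m, chr3L:2651924-2652024, minus strand: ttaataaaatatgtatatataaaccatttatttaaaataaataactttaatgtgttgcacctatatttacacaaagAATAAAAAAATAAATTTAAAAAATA
beta-PheRS, chr3R:24252718-24252818, minus strand: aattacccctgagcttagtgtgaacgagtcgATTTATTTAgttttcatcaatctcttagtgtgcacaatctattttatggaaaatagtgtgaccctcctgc

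The ProRS-m window held 87.1% A and T and a run of 25 bp, and the beta-PheRS window 62.4% and a run of 9 bp. The beta-PheRS window holds the core promoter word known as motif 1, GGTCACACT, on its other strand. A summit in the replicate 2 list and not the replicate 1 list was found at 5 synthetase genes (14.3%), against 8.95% of all protein-coding genes, and the reverse at 8 (22.9%), against 14.1%. Of these 5 genes, 4 had motif 1 in their 300 bp promoter (beta-PheRS, GlnRS, AspRS-m and ProRS-m), against 0 of the 14 genes with summits in both replicates and 0 of the 8 with a replicate 1 summit alone. AsnRS-m, with no summit in any list, was the other synthetase gene with it. Motif 1 was thus in 5 of the 35 promoters (14.3%), against 6.78% of all protein-coding genes. The split by replicate list was seen in the values and does not extend to all genes. Motif 1 was in 6.09% of the 1248 protein-coding genes with a replicate 2 summit alone. It was in 11.9% of those with a replicate 1 summit alone and in 10.7% of those with both.

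The last 8 genes had no summit within 500 bp in any list, the replicate lists included; 43.8% of all protein-coding genes had none in either replicate list and 43.1% none in any list. They are the cytoplasmic genes LeuRS and TrpRS and the mitochondrial genes AlaRS-m, AsnRS-m, GluRS-m, IleRS-m, MetRS-m and ValRS-m. This is 10% of the cytoplasmic and 40% of the mitochondrial genes. Their nearest pooled summit was 3337 to 15708 bp from a start site. In a thresholded list the absence of a summit shows that none was called, not that no protein was bound.

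A set of partner genes was also counted, with roles in tRNA charging, translation elongation or the amino acid stress response. Not all of their products act with the synthetases themselves. Of these 19 protein-coding genes, 5 had an IDR summit (26.3%, interval 11.8 to 48.8), an interval that includes the 19.5% of all protein-coding genes. Their median IDR rank was 2638, against 3459 over all protein-coding genes with an IDR summit. GatA, a subunit of the mitochondrial amidotransferase that makes glutamine on its tRNA, had IDR rank 2211, with ranks 2205 and 2319 in replicates 1 and 2. The transcription factor gene crc, the fly ATF4 of the amino acid stress response, had IDR rank 2557, with ranks 3177 and 1707. The elongation factor genes eEF1gamma, mEFTu1 and eEF1alpha1 had IDR ranks 2638, 5963 and 6876. AIMP1, AIMP2 and AIMP3, named for scaffold proteins of the multisynthetase complex in mammals, had no IDR summit, and AIMP2 alone of these had a pooled one, of rank 21127.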

How the data were processed

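Per the text files deposited beside the lists, the authors called peaks in each replicate against a control, then in both replicates together, and derived the IDR list from the results, on dm6. The read aligner was not given in the sources used here, nor was the peak caller. Control reads were not analysed. The deposited files give per peak a signal on a scale the authors do not state, a q-value as −log10 q, and a summit offset in bp, another deposited value. No per-sample column was left unassigned. Genes came from Ensembl release 115 and sequence from Release 6, which share arm names and lengths that hold every peak.

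Summits were assigned to every gene with a start site within 500 bp, and the strongest was ranked by signal (Python 3.11.15, pandas 2.3.3). Shares have Wilson 95% intervals (scipy 1.17.1). The assignment was tested on simulated data. No test was made: 1 group of 2 replicates allows no comparison of conditions, and the replicates measure the spread between these samples alone. All 35 members are named; also named are genes with a start site at a member's IDR summit and partner genes with an IDR summit (AIMP genes chosen after their values were seen). SLIMP and Mtfmt matched no symbol. Members and lists were chosen with earlier results of these data known. The alternatives were other distances, lists and windows.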

Additional observations from a re-analysis of the deposited data

How the results depend on the processing

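The count of 12 synthetase genes (34.3%, against 19.5% of all protein-coding genes) was 11 within 250 bp (31.4%, against 14.7%). It was 13 within 1000 bp (37.1%, against 23.3%). In the pooled list at a q-value of 0.01 or less it was 14 (40%, against 34.9%). In the 7645 strongest peaks of replicate 1 or of replicate 2 alone it was 11 (31.4%), against 19.3% and 20.5%. It was 6 with nearest start sites only (17.1%, against 14.6%). Among the 1911 strongest IDR peaks it was 4 (11.4%, against 6%), and in the whole pooled list 20 (57.1%, against 45.3%). For cytoplasmic genes the count of 10 was 5 with nearest start sites and 4 among the 1911 strongest, and ranged from 9 to 10 with a replicate left out. For mitochondrial genes the count of 2 was 1 with nearest start sites, 0 among the 1911 strongest and 5 in the pooled list, and ranged from 1 to 2 with a replicate left out. Without replicate 2, ArgRS-m alone was lost. Without replicate 1, AlaRS, ValRS, alpha-PheRS and ArgRS-m were lost and ArgRS, beta-PheRS and ProRS-m gained, so 8 of the 12 were shared. For all protein-coding genes the count of 2713 was 837 among the 1911 strongest, 6319 in the pooled list and 4873 there at a q-value of 0.01 or less. Of the 14 genes with a summit in both replicate lists (40%, against 33.1%), 8 remained with the 7645 strongest peaks of each (22.9%). The share over all protein-coding genes at that setting is not given here, so this count has no background beside it. The median signed distance of -149 bp was -123 bp from the start site of the longest transcript. The share of A and T of 73.1% was 74.5% within 25 bp of the summit and 69.7% within 100 bp. Over all 2236 promoter summits it was 68.4% within 25 bp and 65.7% within 100 bp. Within 25 bp the centre was richer than the flanks at all 12 summits, against 77.9% of promoter summits. Within 100 bp it was richer at 9 of the 12 (75%), below the 79.0% of promoter summits. The cause of the changes with a replicate left out was not tested. No paired analysis was possible because there is 1 group. Read depth is unknown and limits what an absent summit shows.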
